A study of Mus musculus with 7 samples.

Results

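In the Q7 line of mouse striatal cells, 12822 of 26433 SOX2 binding events (48.5%) had at least 1 FRA2 event and at least 1 JUND event within 100 bp. These positions are called SOX2/AP-1 sites here. They were chosen by distance alone, from 3 deposited tables of binding events that each give a single base position on the mouse build mm9. SOX2 is a transcription factor of the HMG box class that maintains neural progenitors and binds DNA in its minor groove. FRA2 (a FOS family protein, encoded by Fosl2) and JUND (a JUN family protein) are subunits of AP-1, a leucine zipper dimer that binds enhancers and responds to growth factors, stress and neuronal activity. FOS family proteins need a partner such as a JUN protein to bind DNA, so that FRA2 and JUND can occupy a site as a heterodimer.

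Chromatin immunoprecipitation with sequencing (ChIP-seq) was carried out in the lines STHdhQ111 and STHdhQ7, called Q111 and Q7. Q111 cells carry 2 huntingtin alleles with an expanded glutamine tract (genotype HdhQ111/Q111), of the kind that causes Huntington's disease, and Q7 cells carry 2 alleles with a short tract (HdhQ7/Q7). Per the labels, both are E14 striatal derived lines of strain 129SvEv/CD1, used at low passage and warmed before experiments to halt cycling. FRA2 and JUND were measured in Q111 and in Q7, SOX2 in Q7, and IgG in both lines. SOX2 in Q111 was not analysed here, and a difference between lines cannot be told apart from one between genotypes, since each genotype is 1 cell line.

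Each sample pools 2 replicates, so every value below is that of 1 library, and no spread between replicates can be given. The tables hold 3498922 FRA2 reads in Q111, against 3340554 in Q7, 1609483 JUND reads in Q111 and 1660158 in Q7, and 1193914 SOX2 reads in Q7. They count only reads assigned to events. A test on the reads of a site compares 2 libraries, and its intervals cover counting error only. No RNA was measured in these samples, so the striatal label was not checked against marker genes. Sites carry no gene names or sequence here because no genome or annotation of the same build was used.

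SOX2/AP-1 sites held more SOX2 reads than the other classes of SOX2 event. Their median was 38 SOX2 reads (quartiles 28 and 59, range 20.9 to 515.7). The 3553 SOX2 events with JUND but no FRA2 within 100 bp had a median of 32.7 reads, the 2091 with FRA2 but no JUND 31, and the 7967 with neither 28. A site with at least 100 SOX2 reads made up 9.20% of SOX2/AP-1 sites, against 5.99% of events with JUND only, 4.26% with FRA2 only and 2.56% with neither. The mean control was 4.34 reads at SOX2/AP-1 sites and between 4.15 and 4.31 in the other classes. Events are not replicates, so no test was made between these classes.

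When all SOX2 events were ranked by reads and divided into 4 groups of equal size, SOX2/AP-1 sites made up 33.6% of the lowest, 42.2% and 53.1% of the next groups and 65.1% of the highest. Of the 1000 SOX2 events with the most reads, 700 were SOX2/AP-1 sites, and of the top 100, 72 were. At the very top the share was 5 of 10, and the event with the most SOX2 reads of all, 899.8, belonged to the class with neither AP-1 protein within 100 bp. SOX2/AP-1 sites held 55.7% of all SOX2 reads in events.

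**Figure D1:**
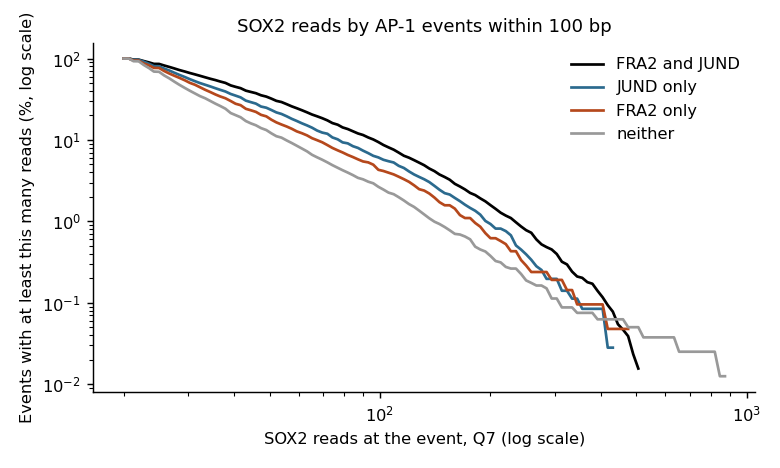
Share of SOX2 events (vertical axis, percent, log scale) with at least a given number of SOX2 reads in Q7 (horizontal axis, log scale), for events with FRA2 and JUND, JUND only, FRA2 only or neither within 100 bp. At 100 reads the line for FRA2 and JUND stands at 9.20%, above the other classes, and the lines cross near the highest read numbers.

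The rule itself bounds the distances from SOX2 at 100 bp, so only their distribution within it is described. The median distance from SOX2 was 33 bp to FRA2 (quartiles 16 and 55) and 31 bp to JUND (15 and 54). FRA2 and JUND were closer to each other than either was to SOX2, with a median of 14 bp (6 and 29). Over 10 bp bins, 15.3% of SOX2 to FRA2 distances fell below 10 bp and 3.31% in the bin that starts at 90 bp, while 36.5% of FRA2 to JUND distances fell below 10 bp. SOX2 therefore had no single preferred offset from AP-1 in bins of this width: counts per bin were level up to 30 bp and then declined.

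The order along the chromosome was balanced. SOX2 lay at a higher coordinate than both AP-1 positions at 5262 sites (41.0%), at a lower one at 4970 sites (38.8%), and between them or on one of them at 2590 sites (20.2%). JUND was the closer of the AP-1 proteins at 6653 sites and FRA2 at 5870. All 3 positions fell within 20 bp of each other at 2247 sites (17.5%). They were the same base at 1 site, chr19:57089475, with 33 SOX2 reads, 113 FRA2 reads in Q111, against 189 in Q7, and 66 JUND reads in Q111 and 127 in Q7. This site was named after its values were seen.

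The FRA2 to JUND distance was nearly the same with and without SOX2. At the 12378 SOX2/AP-1 sites whose FRA2 and JUND events were each other's nearest, the median was 14 bp, and 41.0% lay within 10 bp. The 17599 such FRA2 and JUND pairs with no SOX2 event within 1 kb had a median of 13 bp, with 40.9% within 10 bp. The span of the 3 positions went with the number of AP-1 reads. Where the 3 positions spanned at most 20 bp, FRA2 had a median of 69 reads in Q111, against 99 in Q7. Where they spanned 101 bp or more (275 sites), which needs SOX2 to lie between FRA2 and JUND, the medians were 22.9 in Q111 against 36.2 in Q7. SOX2 reads ran the other way, with a median of 36 in the first group and 48 in the second.

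The limit of 100 bp cuts through a continuous range: 294 sites had their farther AP-1 event at 96 to 100 bp, and 308 SOX2 events had it at 101 to 105 bp. Just inside, chr1:92122509 had 52 SOX2 reads with FRA2 and JUND both 100 bp away, and chr1:81674591 and chr1:136913564 had 46 and 49 SOX2 reads. Just outside, at 101 bp, chr1:162480884, chr10:33938113 and chr10:40231271 had 28, 26 and 31.1 SOX2 reads. At exactly 100 bp lay the FRA2 event of 41 sites and the JUND event of 19. The sites named inside the limit had more SOX2 reads than those named outside, but these few sites cannot show whether SOX2 reads change at the limit. Most sites were simple: 12464 (97.2%) had 1 FRA2 event within the limit and 12756 (99.5%) had 1 JUND event. At chr9:41397448 and chr9:41397449, adjacent bases, SOX2 was listed as separate events with 105.2 and 105.8 reads that share their FRA2 and JUND events.

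**Figure D2:**
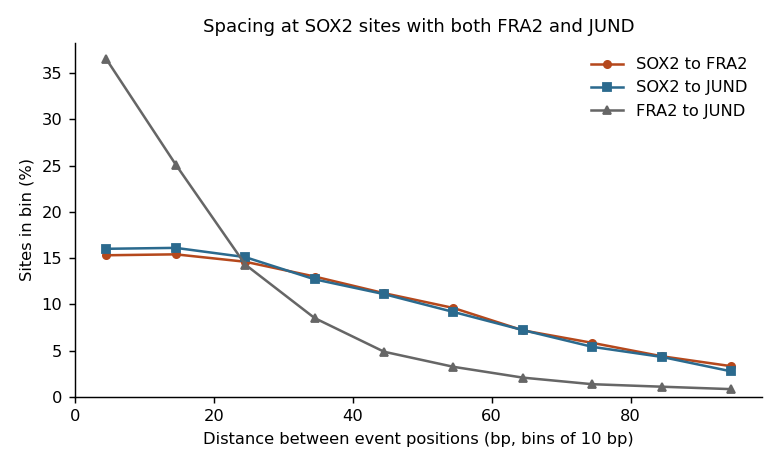
Share of the 12822 SOX2/AP-1 sites (vertical axis, percent) by distance between event positions in bins of 10 bp (horizontal axis), for SOX2 to FRA2, SOX2 to JUND and FRA2 to JUND. FRA2 to JUND distances fall from 36.5% in the first bin, while those from SOX2 start at 15.3% and 16.0% and decline slowly.

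FRA2 and JUND at these sites were then compared between the lines. An event was called different where a two-sided exact binomial test of its reads gave a Benjamini-Hochberg adjusted p below 0.05 over the whole table and the fold was at least 2. The nearest FRA2 event was called higher in Q111 at 458 SOX2/AP-1 sites (3.57%) and higher in Q7 at 4114 (32.1%). Over all FRA2 events, 23.3% were called higher in Q111 and 21.3% higher in Q7. The nearest JUND event was called higher in Q111 at 455 sites (3.55%) and higher in Q7 at 4585 (35.8%), where 17.4% and 23.3% of all JUND events were. Calls towards Q7 were therefore more frequent at these sites than in each table as a whole, and calls towards Q111 less frequent. Scaling by total control reads gave FRA2 higher in Q111 at 1.44% and in Q7 at 43.8% of sites (all events 16.4% and 30.5%), and JUND at 0.834% and 59.3% (all events 8.67% and 43%). An assumed dispersion of 0.05 between replicates gave FRA2 higher in Q111 at 1.42% and in Q7 at 22.1% (all events 14.1% and 12.2%), and JUND at 1.31% and 21.1% (all events 9.21% and 11.9%).

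The median FRA2 event at a SOX2/AP-1 site had 52 reads in Q111, against 78 in Q7, and the median JUND event 33 in Q111 against 46.5 in Q7. The median log2 difference (Q111 over Q7) was -0.48 for FRA2 and -0.60 for JUND, against 0.00 and -0.13 over all events of the tables. Where FRA2 was called higher in Q7 the median fold was 3.49, and 1685 sites (13.1%, all events 7.99%) differed at least 4-fold. Where it was called higher in Q111 the median fold was 2.43, and 39 sites (0.304%, all events 9.76%) differed at least 4-fold. For JUND, 50 sites (0.39%, all events 7.42%) were at least 4-fold higher in Q111 and 1801 (14.0%, all events 8.8%) at least 4-fold higher in Q7. SOX2 was mapped in Q7 alone, so choosing sites by SOX2 cannot be told apart from choosing sites bound in Q7.

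The calls of the subunits mostly ran the same way. FRA2 and JUND were both called higher in Q111 at 249 sites (1.94%) and both called higher in Q7 at 3487 (27.2%), and neither was called at 6947 (54.2%). Of all 35176 FRA2 and JUND pairs, 15.1% were both called higher in Q111, 17.4% both higher in Q7 and 49.3% neither. The calls were opposite at 1 site, and at 0.0114% of all pairs. Sites where both were higher in Q111 had a median of 123.9 FRA2 reads in Q111, against 39.2 in Q7, and 83 JUND reads in Q111 and 25 in Q7. Sites where both were higher in Q7 had a median of 17 FRA2 reads in Q111, against 75 in Q7, and 11 JUND reads in Q111 and 46 in Q7. The median number of SOX2 reads was 29 at the first kind of site, 45 at the second and 35 where neither was called.

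Across the 12822 sites the FRA2 and JUND log2 differences were correlated with Pearson r = 0.86 and Spearman rho = 0.86. At the 6947 sites called for neither protein both were 0.58, and the sign was shared at 73.0%. Sites are not independent replicates: they share the 2 lines, and neighbouring sites share chromatin and DNA copy number, so no p is attached. Both log2 differences were below 0 at 64.5% of sites and above 0 at 20%.

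**Figure D3:**
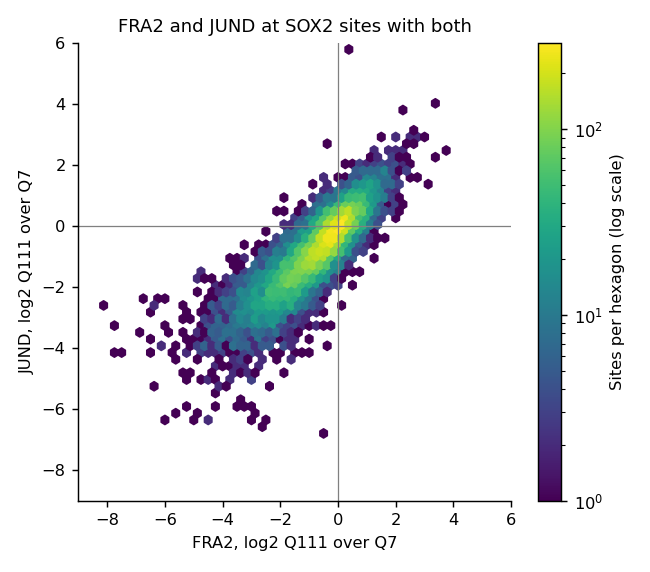
Log2 difference between the lines (Q111 over Q7) of the nearest JUND event (vertical axis) against that of the nearest FRA2 event (horizontal axis) at 12822 SOX2/AP-1 sites, with colour giving the number of sites per hexagon on a log scale. The cloud follows the diagonal and extends further towards Q7 (lower left), where 3487 sites were called for both proteins, than towards Q111, where 249 were.

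The deposited tables also mark each event as present or not in each line, and marks in Q111 alone were rarer at SOX2/AP-1 sites than over all events, while marks in Q7 alone were close to the share over all events. FRA2 was marked in both lines at 9355 sites (73.0%), in Q111 alone at 283 (2.21%) and in Q7 alone at 3184 (24.8%), where 47.6%, 25.7% and 26.7% of all FRA2 events were. JUND was marked in both lines at 7661 sites (59.7%), in Q111 alone at 419 (3.27%) and in Q7 alone at 4742 (37.0%), against 37.1%, 24.4% and 38.4% of all JUND events. Both proteins were marked in Q111 alone at 137 sites (1.07%) and in Q7 alone at 2783 (21.7%), where 13.3% and 16.7% of all FRA2 and JUND pairs were. The strongest SOX2 event of the last group was chr14:73653429, named after its values were seen, with 414 SOX2 reads. There FRA2 had 8 reads in Q111, against 108.9 in Q7, and JUND 4 reads in Q111, against 61.2 in Q7.

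Sites with almost no AP-1 reads in one line were uncommon. Both proteins had 5 or fewer reads in Q111 at 237 sites (1.85%), with medians of 37 FRA2 and 31 JUND reads in Q7 and 43 SOX2 reads. The reverse, 5 or fewer reads of both in Q7, was found at 1 site. The shares over all FRA2 and JUND pairs are not given here, and the sites were chosen by SOX2 mapped in Q7 alone. Neither count can therefore be read as particular to these sites. At this depth a site with few reads in one line may still be bound there below the limit that the reads can show.

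Paired FRA2 and JUND events away from SOX2 were shifted the other way. The FRA2 events at SOX2/AP-1 sites had a median log2 difference of -0.48, and the 17707 FRA2 events with JUND within 100 bp and no SOX2 event within 1 kb had 0.46. Of these 17707 events, 35.3% were called higher in Q111 and 12.4% higher in Q7. For JUND the medians were -0.60 at SOX2/AP-1 sites and 0.37 at the 17602 sites without SOX2, of which 31.2% were called higher in Q111 and 14.2% higher in Q7. SOX2 was mapped in Q7 alone, so leaving out events near SOX2 cannot be told apart from leaving out sites bound in Q7. No test was made across sites.

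The contrast stood in each of 4 bands of AP-1 reads, which were set after values were seen. Among FRA2 events with 200 reads or more over both lines, 3.74% of those at SOX2/AP-1 sites were higher in Q111 and 15.1% higher in Q7, against 26.7% and 4.78% of those without SOX2. Among FRA2 events with fewer than 50 reads the shares were 2.52% and 57.3% at SOX2/AP-1 sites, and 44.7% and 18.4% without SOX2. JUND events with 200 reads or more were higher in Q111 in 3.48% and higher in Q7 in 13.3% of cases at SOX2/AP-1 sites, against 31.6% and 1.75% of the 114 without SOX2. The share higher in Q7 at SOX2/AP-1 sites declined as AP-1 reads grew. Every listed event was marked present in Q7, in Q111 or in both, so a weak event can be listed through the line where it is higher. The decline cannot be told apart from an effect of this listing. The bands do not change how the sets were chosen, by SOX2 mapped in Q7 alone.

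Each SOX2 class with only 1 AP-1 protein was set beside SOX2/AP-1 sites for that protein. SOX2 events with JUND only had 3.6% of their JUND events higher in Q111 and 32.3% higher in Q7, close to the 3.55% and 35.8% at SOX2/AP-1 sites. Those with FRA2 only had 2.20% of their FRA2 events higher in Q111 and 50.4% higher in Q7, against 3.57% and 32.1% at SOX2/AP-1 sites. Their FRA2 events were weak, with medians of 15.1 in Q111 and 30 in Q7, while SOX2/AP-1 sites had 52 in Q111 and 78 in Q7. The FRA2 events with fewer than 50 reads over both lines at SOX2/AP-1 sites were higher in Q7 in 57.3% of cases. Weak events can be listed through the line where they are higher, and what this adds to either share was not tested. JUND events of the class with JUND only had medians of 23 in Q111 and 28 in Q7, against 33 and 46.5 at SOX2/AP-1 sites.

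The difference between the lines grew with SOX2 reads. SOX2/AP-1 sites were divided by SOX2 reads into 4 groups of equal size. In the lowest group (median 24 SOX2 reads), FRA2 was called higher in Q111 at 6.43% of sites, against 23.1% called higher in Q7, and the median log2 difference was -0.25. In the highest group (median 85.1 SOX2 reads), 1.15% were higher in Q111 and 43.6% were higher in Q7, and the median was -0.80. JUND in the lowest group was higher in Q111 at 5.58% and in Q7 at 25.7%, and its median was -0.31. In the highest group these shares were 1.31% in Q111 and 47.8% in Q7, and the median was -0.94. The groups between them followed the same order.

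SOX2 reads went with AP-1 reads in Q7 more than in Q111. Over the 12822 sites the Spearman rho of SOX2 reads was 0.09 with JUND reads in Q111 and 0.44 with JUND reads in Q7, and 0.04 with FRA2 reads in Q111 and 0.25 with FRA2 reads in Q7. From the lowest to the highest group of SOX2 reads, median FRA2 reads ran from 50 to 58 in Q111 and from 61 to 112 in Q7. These libraries share the Q7 line, and SOX2 depth in Q111 is unknown here.

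Within broad bands of AP-1 reads in Q7, the highest SOX2 group also had a lower median log2 difference than the lowest. Among sites with 80 or more FRA2 reads in Q7, the median FRA2 log2 difference was -0.66 in the highest SOX2 group (2036 sites) and -0.23 in the lowest (1212 sites). Among sites with 40 to 79 JUND reads in Q7 it was -1.04 for JUND in the highest group (1296 sites) and -0.37 in the lowest (1060 sites). Reads in Q7 can still differ between the groups within a band, above all in the one without an upper bound.

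**Figure D4:**
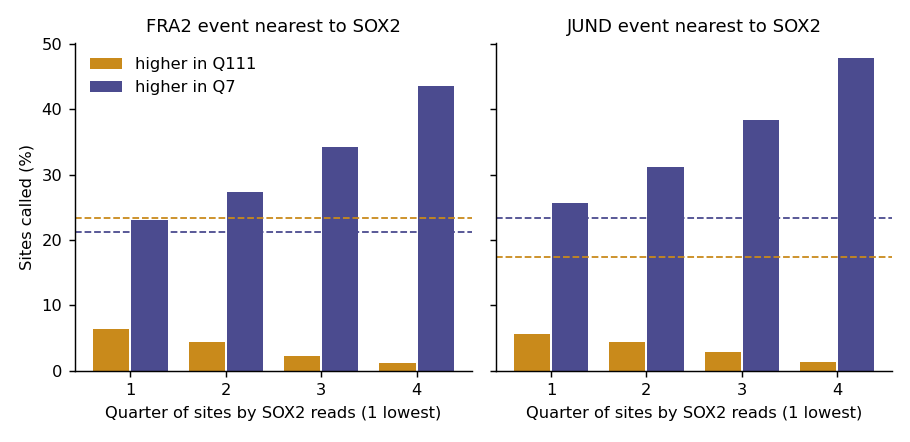
Share of SOX2/AP-1 sites (vertical axis, percent) whose nearest FRA2 event (left) or JUND event (right) was called higher in Q111 or higher in Q7, by group of SOX2 reads (horizontal axis, 4 groups of equal size, 1 lowest); dashed lines give the share of all events of the table called in that direction. The Q7 bars grow from 23.1% to 43.6% for FRA2 and from 25.7% to 47.8% for JUND, and bars for Q111 stay below their dashed line.

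Of the 100 SOX2/AP-1 sites with the most SOX2 reads (251.2 to 515.7), FRA2 was called higher in Q111 at 0 and higher in Q7 at 65, and JUND at 0 and 64. Over all events, 23.3% of FRA2 events were called higher in Q111 and 21.3% in Q7, and 17.4% and 23.3% of JUND events. The 100 sites were ranked by SOX2 reads in Q7 alone, which cannot be told apart from choosing sites strong in Q7. Calls towards Q7 were not made at all of the top sites. At chr3:19857020, with 515.7 SOX2 reads, FRA2 lay 8 bp away and had 66 reads in Q111, against 84.5 in Q7. JUND, 76 bp away on the other side, had 115 reads in Q111, against 140.8 in Q7, and neither was called. At chr14:46792765, with 509.5 SOX2 reads, FRA2 had 23.9 reads in Q111, against 145.7 in Q7, 6.19-fold higher in Q7 (interval 4.06 to 10.1, exact binomial test, adjusted p = 1.31e-21). JUND had 18.7 reads in Q111, against 119.3 in Q7, and was there 6.56-fold higher in Q7 (4.04 to 11.3, exact binomial test, adjusted p = 7.77e-18).

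Neither protein was called at chr10:121341334, where FRA2 lay 10 bp and JUND 3 bp from a SOX2 event of 482.3 reads. FRA2 had 542.6 reads in Q111, against 536.7 in Q7, and JUND 190.8 in Q111 against 155.1 in Q7. At chr4:53240856, with 462 SOX2 reads and both AP-1 proteins 4 bp away, FRA2 had 171 reads in Q111, against 517 in Q7, and JUND 89 in Q111 against 246 in Q7. These are 3.12-fold (2.62 to 3.73) and 2.90-fold (2.27 to 3.75) differences, both called.

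At chr2:92591008 (442 SOX2 reads) FRA2 had 12.9 reads in Q111, against 75.1 in Q7, and JUND 39 in Q111 against 138 in Q7. The table's Q111 control value at the FRA2 event was 10.1 reads, close to its FRA2 reads. Which library stands behind each control column is not given in the sources used here. At chr17:67100147 (432.4 SOX2 reads) FRA2 had 132.6 reads in Q111, against 342.6 in Q7, and JUND 86.9 in Q111 against 320.7 in Q7. All 4 of these events were called higher in Q7. At chr3:78957044 (440.7 SOX2 reads) JUND had 156 reads in Q111, against 316 in Q7, and was called, while FRA2 had 139.1 in Q111 against 165.8 in Q7 and was not. The JUND call was lost with total-read scaling (log2 -0.97), with control reads subtracted (-0.96) and with the assumed dispersion. The differences of the 2 proteins at that site did not pass the test of their difference (exact hypergeometric test, adjusted p = 0.125).

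The other top sites were called for neither protein. FRA2 had 671.7 reads in Q111, against 876.3 in Q7 at chr15:71533704 (494 SOX2 reads), and 399.7 in Q111 against 343.9 in Q7 at chr15:58311993 (484.8 SOX2 reads). At chr3:136264880 (457 SOX2 reads) it had 199.7 in Q111 against 175.7 in Q7. At chr15:71533704 the FRA2 fold was 1.35 (1.22 to 1.49) towards Q7, below the fold limit but with an adjusted p of 6.13e-08 by the exact binomial test. JUND at that site had 262.7 reads in Q111, against 384.5 in Q7, 1.54-fold (1.31 to 1.80, exact binomial test, adjusted p = 1.03e-06), and was called with a fold limit of 1.5 and with control scaling (log2 -1.28). JUND had 276.5 in Q111 against 270.7 in Q7 at chr15:58311993, and 120.5 in Q111 against 91 in Q7 at chr3:136264880.

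The sites with AP-1 most clearly higher in Q111 were weak SOX2 sites. At chr2:100924172, with 23 SOX2 reads, FRA2 had 337.5 reads in Q111, against 33.1 in Q7, 9.74-fold higher (6.93 to 14.6, exact binomial test, adjusted p = 1.15e-59). JUND there had 12 reads in Q7 and was 15.3-fold higher in Q111 (8.92 to 31.4). At chr8:58918398, with 35 SOX2 reads, FRA2 had 403 reads in Q111, against 49 in Q7, and JUND 196 in Q111 against 25 in Q7. The 3 remaining sites taken by the rule, chr2:134918778, chr8:83486355 and chr15:54218549, had 30, 22 and 26 SOX2 reads. FRA2 was 6.80-fold, 6.27-fold and 6.19-fold higher in Q111 at these, and JUND 7.81-fold, 8.73-fold and 6.46-fold.

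The sites with AP-1 most clearly higher in Q7 had more SOX2 reads. At chr19:25536734, with 122 SOX2 reads, FRA2 17 bp away had 7 reads in Q111, against 488 in Q7, and JUND 12 bp away had 2 in Q111 against 200 in Q7. At chr8:14732336, with 221.1 SOX2 reads, FRA2 had 3 reads in Q111, against 285.9 in Q7, and JUND 5 in Q111 against 208.1 in Q7. The FRA2 ratio at this site was 84.5 with an interval of 33.3 to 480.1, since 3 reads fix it poorly. At chr5:29360261 (178.7 SOX2 reads) FRA2 97 bp away had 4.3 reads in Q111, against 149.5 in Q7, and JUND 34 bp away had 1 in Q111 against 113 in Q7. The FRA2 reads in Q111 at the last 2 sites lay below the Q111 control of 14.4 reads at each. At chr19:25536734 the 7 FRA2 reads in Q111 were close to the Q111 control of 6.2. JUND reads in Q111 lay below the Q111 control at chr19:25536734 (control 6.5), chr8:14732336 (13.9) and chr5:29360261 (14).

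On chromosome 17, chr17:6180527 (174 SOX2 reads) had 11 FRA2 reads in Q111, against 272.9 in Q7, and 1 JUND read in Q111 and 122 in Q7. At chr17:62956901 (62 SOX2 reads) FRA2 had 8 reads in Q111, against 232 in Q7, and JUND 3 in Q111 against 108 in Q7. The Q111 control at chr17:6180527 was 9.8 reads for FRA2 and 9.7 for JUND, and at chr17:62956901 5.2 and 5.4. JUND reads in Q111 lay below the control at both of these sites. The 5 sites higher in Q7 held 62 to 221.1 SOX2 reads, and the 5 sites higher in Q111 22 to 35. Both sets were taken for their folds, so the sizes of these differences are those of extremes.

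Of the 5 sites with the most AP-1 reads, 4 were called for neither protein, and at the fifth, chr10:123575684, JUND was called higher in Q7. At chr8:70681297 (136 SOX2 reads) FRA2 had 1008 reads in Q111, against 936 in Q7, and JUND had 297 in each line. At chr6:52775686 (41 SOX2 reads) FRA2 had 820.4 reads in Q111, against 692.1 in Q7, and JUND 339 in Q111 against 317 in Q7. At chr15:73749837 (41 SOX2 reads) FRA2 had 1078.6 reads in Q111, against 748.8 in Q7, and its 1.4-fold excess (1.27 to 1.53) stayed under the limit of 2. At each of the last 2 sites a large number of AP-1 reads stood beside only 41 SOX2 reads. The SOX2 control at chr15:73749837 was 13 reads, against a mean of 4.34 at SOX2/AP-1 sites, so its SOX2 signal stood little above background.

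A test of whether FRA2 and JUND differed unequally between the lines was made on the 4 read numbers of each FRA2 and JUND pair (two-sided exact hypergeometric test on unscaled reads, adjusted over 35176 pairs). It was passed at 35 of 12378 SOX2/AP-1 sites, where 0.216% of all pairs passed. FRA2 was shifted further towards Q111 at 27 of the 35 and JUND at 8. The same split over all pairs that passed is not given here, so it cannot be read as particular to these sites. Before adjustment 1179 of the 12378 sites and 2928 of all 35176 pairs had a p below 0.05, so that the other sites are not shown to be equal. Of the 35 sites, 12 had JUND called higher in Q7 with FRA2 not called, and 11 had neither called.

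The only opposite calls were at chr15:90170576, with 33 SOX2 reads. FRA2, 96 bp away, had 102 reads in Q111, against 40 in Q7, and JUND, 69 bp away, had 30 in Q111 against 59 in Q7 (exact hypergeometric test, adjusted p = 6.00e-05). Both folds were near the limit of 2: the JUND call was lost with total-read scaling (log2 -0.92) and with unscaled reads (-0.96), the FRA2 call with control scaling (0.93), and both with the assumed dispersion. At chr6:72876961 (66 SOX2 reads) FRA2 had 748 reads in Q111, against 498 in Q7, and JUND 203.9 in Q111 against 280 in Q7. At chr10:51695116 (28 SOX2 reads) FRA2 had 320.9 reads in Q111, against 122.7 in Q7, while JUND had 135 in Q111 against 132 in Q7. With FRA2 reads within 100 bp of SOX2 summed, the FRA2 log2 difference there was 0.34 in place of 1.34, and the call was lost, as it was with control scaling (0.97). At chr10:123575684 (50 SOX2 reads) FRA2 had 716 reads in Q111, against 946 in Q7, and JUND 143 in Q111 against 351 in Q7.

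At chr3:109057077 (91 SOX2 reads) JUND reads were divided over 2 listed events. The nearest JUND event had 0.1 reads in Q111, against 65.7 in Q7, at least 23.0-fold higher in Q7 against a floor of 3 reads. A neighbouring JUND event at position 109057161 had 73.9 reads in Q111, against 0.3 in Q7, and with both summed the JUND log2 difference was 0.09. FRA2 had 114.2 reads in Q111, against 164.1 in Q7. Of the 35 sites, 6 had a second FRA2 or JUND event within 100 bp of SOX2, as had 407 of all SOX2/AP-1 sites (3.17%).

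By chromosome, SOX2/AP-1 sites were between 40.5% (X) and 51.3% (chromosome 6) of SOX2 events. The median FRA2 log2 difference at these sites was below 0 on each of the 20 chromosomes that held any, from -0.67 on chromosomes 7 and 17 to -0.21 on chromosome 11. The median JUND log2 difference ran from -0.90 on chromosome 17 to -0.32 on chromosome 11. On each chromosome the SOX2/AP-1 sites had a lower median than the other events of the same table. The gap was smallest on chromosome 17, at -0.32 for FRA2 and -0.36 for JUND, where the other events also had medians below 0 (-0.36 for FRA2 and -0.54 for JUND). It was largest on the X for FRA2 (-0.87) and on chromosomes 13 and 14 for JUND (-0.90). DNA copy number was not measured here, so a difference in copy number between the lines cannot be told apart from one in binding.

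**Figure D5:**
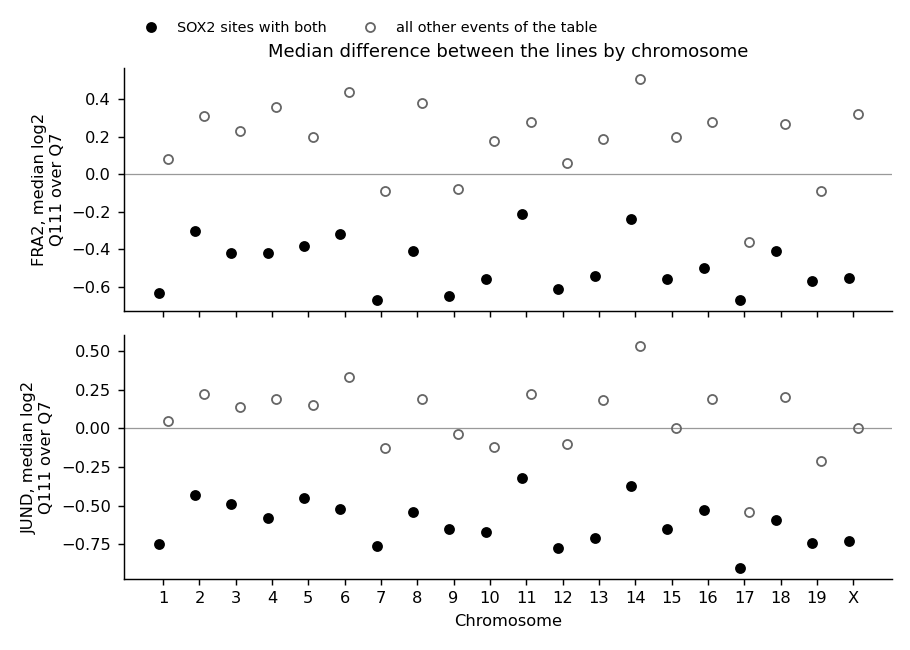
Median log2 difference between the lines (Q111 over Q7, vertical axes) of FRA2 (top) and JUND (bottom) by chromosome (horizontal axis), at SOX2/AP-1 sites (filled) and at all other events of the same table (open). Filled points lie below open ones on each chromosome, and on chromosome 17 both are below 0.

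SOX2/AP-1 sites were spread over 1931 bins of 1 Mb, and 450 bins held at least 10. These bins were described after the values were seen. The fullest, on chromosome 15 between 64016601 and 64635632, held 37 sites: FRA2 was higher in Q111 at 0 and higher in Q7 at 17 of them, and JUND at 0 and 19. On chromosome 13 between 34043316 and 34881512, with 35 sites, FRA2 was higher in Q111 at 0 and higher in Q7 at 20, and JUND at 0 and 23. A bin of 36 sites on chromosome 8 between 129047533 and 129757833 was near balance, with median log2 differences of -0.17 for FRA2 and 0 for JUND. In the whole tables, 23.3% of FRA2 events were called higher in Q111 and 21.3% in Q7, and 17.4% and 23.3% of JUND events. Shares over all events inside these bins are not given here, so the counts cannot be read as particular to SOX2/AP-1 sites.

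In 402 of the 450 bins the medians of both proteins were below 0, and in 16 both were above 0. Medians of the other events in the same bins are not given here, so neither count can be read as particular to SOX2/AP-1 sites. The lowest FRA2 median, -2.48, was found on chromosome 13 between 47003372 and 47732266, where 10 sites had 304.7 FRA2 reads in Q111, against 974.9 in Q7 in all. Another bin of low medians held 13 sites on chromosome 15 between 37373341 and 37955399, with 702.6 FRA2 reads in Q111, against 1801.8 in Q7, and 352.3 JUND reads in Q111 and 1087.8 in Q7. Among the 5 bins where the mean of the FRA2 and JUND medians was highest, 13 sites on chromosome 4 between 137003371 and 137912606 had 2118.3 FRA2 reads in Q111, against 1321.7 in Q7, with FRA2 called higher in Q111 at 2 and higher in Q7 at 2. In each of these 5 bins FRA2 was called higher in Q111 at no more than 3 sites.

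Control reads were low at nearly all SOX2/AP-1 sites. At 2 sites the SOX2 control reached 40 reads, chr19:61275655 with 163 SOX2 and 41 control reads and chrX:73844423 with 130.9 and 40, and neither AP-1 protein was called at these. Over the FRA2 events of SOX2/AP-1 sites the mean control was 6.66 reads in Q111, against 4.54 in Q7, and over JUND events 7.21 in Q111 against 4.52 in Q7. With control reads subtracted, FRA2 was higher in Q111 at 4.56% and in Q7 at 35.5% of sites (all events 26.4% and 24.5%), and JUND at 5.48% and 39.2% (all events 20.9% and 28.3%).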

How the data were processed

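Each sample pools replicates 1 and 2, per the labels. Reads were aligned with Bowtie 0.12.7 to mm9, per the submitters' processing notes, and the deposited tables list GPS events (significant ones, per the table names). Which version of the caller was run, and how, is not given in the sources used here. Immunoprecipitation values are expected counts as deposited by the authors (78 to 89.6% are whole numbers), rounded to whole reads for tests. Control values are a deposited signal: control reads scaled by 1 factor in each library. The SOX2 table also holds a deposited fold ratio over control and a deposited −log10 q-value (lowest 2.02), and the other tables hold present marks.

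From these, SOX2 events were joined to FRA2 and JUND events within 100 bp, the nearest being used. The Q111 share of reads was tested per event (exact binomial, smaller tail doubled) against the median log2 ratio over events marked in both lines, which was 0.05 (FRA2) and 0.07 (JUND). P-values were Benjamini-Hochberg adjusted over all events with at least 20 reads, the fold had a pseudocount of 0.5 reads, and calls needed 2-fold. Fold intervals are 95% Clopper-Pearson. Unequal differences were tested by an exact hypergeometric test on mutual nearest pairs. Python 3.11.15, pandas 2.3.3 and scipy 1.17.1 were used, and the tests were tested on simulated data. Sites were named by rank: the 10 with the most SOX2 reads, the 5 each with the farthest intervals towards Q111 and Q7, the most AP-1 reads and the smallest p for unequal differences, and the 3 on each side of the distance limit. The members and lists were chosen with earlier results of these data known. The 25 other columns were not used. Gene lists and motifs were not examined, since no annotation or genome of the build was used.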

Additional observations from a re-analysis of the deposited data

Results flagged for a closer look

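The difference between the lines was unequal for FRA2 and JUND at 35 of 12378 SOX2/AP-1 sites (exact hypergeometric test, adjusted p below 0.05 over 35176 pairs). Of all 35176 pairs, 76 (0.216%) passed. The 35 sites are listed because the differences of the 2 proteins were tested against each other. At the 5 sites named in the report the adjusted p of that test was 2.54e-09 at chr3:109057077, 3.41e-07 at chr6:72876961, 3.25e-05 at chr10:51695116, 4.40e-05 at chr10:123575684 and 6.00e-05 at chr15:90170576. At chr3:109057077 the JUND reads were divided over 2 listed events, one with nearly all of its reads in Q111 and one in Q7. With reads within 100 bp of SOX2 summed, the JUND log2 difference at chr3:109057077 was 0.09, where the nearest event alone was at least 23.0-fold higher in Q7. The FRA2 log2 difference at chr10:51695116 was then 0.34 in place of 1.34. At chr6:72876961, chr10:123575684 and chr15:90170576 the values of both proteins were the same to 2 decimals. The test of unequal differences was not run on summed reads.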

How the results depend on the processing

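Shares are percentages of SOX2/AP-1 sites. With scaling by total control reads, FRA2 was higher in Q111 at 1.44%, JUND was called at 60.1% (0.834% higher in Q111, 59.3% higher in Q7), and the median log2 differences were -0.84 for FRA2 and -1.26 for JUND, while the medians over all events were -0.36 and -0.79, so that the shift was common to all events. With control reads subtracted, JUND was higher in Q111 at 5.48% and in Q7 at 39.2%. A fold limit of 1.5 called FRA2 higher in Q111 at 7.75% and in Q7 at 41.9%, and JUND at 6.50% and 43.1%. A fold limit of 4 gave 13.4% called for FRA2 (0.304% higher in Q111, 13.1% higher in Q7) and 14.4% for JUND (0.39% and 14.05%). An assumed dispersion of 0.05 gave 23.5% called for FRA2 (1.42% higher in Q111) and 22.4% for JUND (1.31% higher in Q111, 21.1% higher in Q7). A distance limit of 50 bp left 22 sites with unequal differences and gave median distances of 21 bp (SOX2 to FRA2), 20 bp (SOX2 to JUND) and 12 bp (FRA2 to JUND), and 200 bp gave 40, 39 and 16 bp, as the limit itself fixes. SOX2 events with a −log10 q of at least 5 had a median of 49 SOX2 reads and log2 medians of -0.58 for FRA2 and -0.71 for JUND. Scaling by total reads in events gave -0.48 for JUND, and a pseudocount of 5 reads gave -0.45 for FRA2 and -0.55 for JUND. In each alternative run, more sites were called higher in Q7 than higher in Q111.

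Over 677 alternatives for 68 log2 differences (Q111 over Q7) of named sites, 624 kept direction and call, 25 lost the call, 4 gained one and 24 changed sign. Of the sign changes, 1 was of a called value: JUND at chr3:109057077 was 0.09 with reads within 100 bp summed. The other 23 were not called in either setting. With reads within 100 bp summed, JUND was -0.10 at chr10:121341334. Scaling by total control reads turned FRA2 to -0.19 at chr15:58311993, -0.22 at chr3:136264880, -0.30 at chr8:70681297, -0.16 at chr6:52775686, -0.03 at chr1:81674591 and -0.27 at chr1:92122509. It turned JUND to -0.44 at chr10:121341334, -0.33 at chr3:136264880, -0.40 at chr15:73749837, -0.64 at chr6:52775686 and -0.02 at chr10:33938113. Scaling by total reads gave JUND 0.08 at chr15:58311993, 0.04 at chr8:70681297 and 0.08 at chr10:51695116. Unscaled reads gave FRA2 0.02 at chr10:121341334 and 0.01 at chr1:136913564, and JUND 0.03 at chr15:58311993 and 0.03 at chr10:51695116. Subtracted controls gave FRA2 0.02 at chr10:121341334, and JUND 0.09 at chr15:58311993, 0.07 at chr8:70681297 and 0.10 at chr10:51695116. No paired analysis was possible because each group holds 1 pooled sample. Depth limits sites near the read minimum of 20, and without separate replicates the spread between cultures is unknown.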
